A study of Mus musculus with 15 samples.

Results

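Of the 15 libraries in the series, 6 hold RNA of 4T1, a line of mouse mammary carcinoma cells that grows in BALB/c hosts: 3 from cells kept in a dish and 3 from cells taken back out of BALB/c lungs on day 7 after the line was injected into the tail vein. These 6 were chosen by their labels alone, and every gene of the deposited tables was eligible, of which 14022 of 54838 passed the filter on low counts and were tested. The culture medium was DMEM with 10% FBS and 1% P/S. The labels state neither how 4T1 cells were separated from lung tissue, nor how many mice stand behind a lung library nor whether replicates are separate cultures or animals, so the p-values measure only the spread between libraries, which may be technical. The other 9 libraries are lung epithelial cells sorted from pools of 5 lungs each, and the distal and niche groups among them served here as the reference for lung RNA, while a niche group with shSox9 was not used. The question the design puts is which transcripts differ between cancer cells taken back out of lung and those kept in a dish. Effects of growth in lung and of recovery from the tissue cannot be told apart.

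A tumour cell that leaves the dish for lung tissue meets leukocytes, their cytokines and a foreign matrix, and it answers through receptors, through transcription factors that those receptors activate, and through factors that it secretes in turn. Interferon-gamma, made mainly by T and NK cells, acts on GAS elements, while type I interferons act on interferon-stimulated response elements (ISREs). Both routes raise guanylate-binding GTPases, the immunoproteasome, MHC molecules and the chemokines that draw CXCR3-bearing lymphocytes.

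Estimated counts summed to 18100745 to 19031705 per lung library and 21167475 to 30421705 per culture library. The floor of 3 counts used for a gene with none in each library corresponds to 0.104 to 0.162 CPM, where CPM is the count relative to library size after TMM scaling. The 10 markers of 4T1 cells and carcinoma epithelium summed to 4699 to 5470 CPM in lung and 5308 to 6066 CPM in culture, so the label of the line held in all 6 libraries. Of the 6 libraries, 2 stood apart in macrophage markers or in interferon-regulated genes. Macrophage and monocyte markers summed to 907 CPM in lung library 3 against 141 and 209 CPM in lung libraries 1 and 2 and 31.8 to 35.4 CPM in culture. In culture library 2 interferon-regulated genes were above the other cultures, as in Irf7 with 3.61, 29.8 and 2.58 CPM. Across genes at large it was culture library 3 that differed most from the other cultures. Its counts gave a chi-square per degree of freedom of 26.84 and 23.93 against culture libraries 1 and 2. Those 2 gave 12.25 against each other. A lower transcript level in these bulk libraries cannot tell fewer cells of a type from less RNA per cell.

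Across the 14022 genes, 51.0% were called at an adjusted p below 0.05 by edgeR's quasi-likelihood test, 27.0% higher and 24.0% lower in lung, and the median log2 fold change was 0.01. Calls of at least 2-fold were 14.8% higher and 3.82% lower. Groups did not overlap for 60.7% of genes. Lack of overlap was a condition for naming the 8 largest rises and falls per class, so it adds no support for them. Counts per list below are to be read beside the 27.0% and 24.0% of all genes. Against that background 186 of 344 tested genes for secreted factors (54.1%) were higher and 56 (16.3%) lower, and 199 of 379 for receptors and other surface proteins (52.5%) were higher and 65 (17.2%) lower. Their median log2 fold changes were 0.72 and 0.65. Transcription factors lay at the background for rises: 181 of 695 (26.0%) were higher, 126 (18.1%) lower, and their median was 0.05. Without lung library 3 the rises numbered 185, 204 and 177, of which 176, 188 and 163 were among the rises with all 6 libraries.

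**Figure D1:**
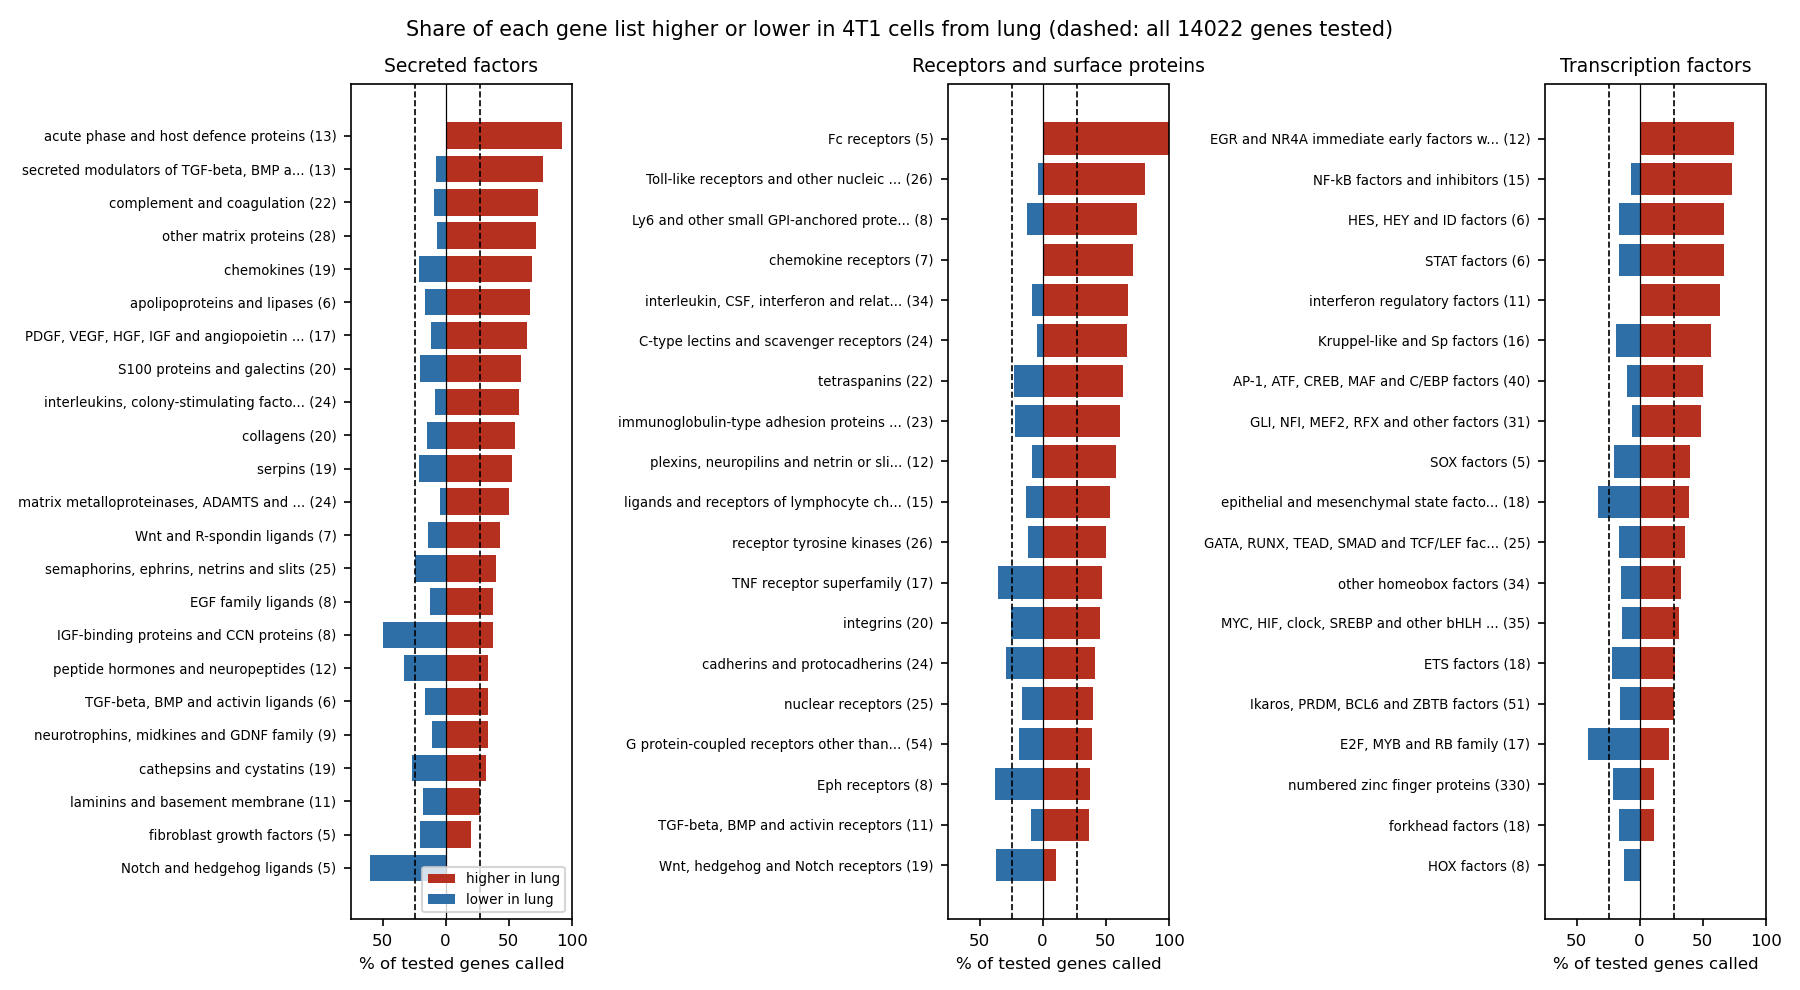
Percent of the tested genes of each list that were called higher (red, to the right) or lower (blue, to the left) in 4T1 cells from lung, for lists of 5 or more tested genes among secreted factors, receptors and transcription factors, with the number tested in brackets. Dashed lines mark the 27.0% and 24.0% over all genes tested. Among the lists drawn, acute phase proteins, Fc receptors and EGR or NR4A factors have the highest share of rises in their panels, and Notch and hedgehog ligands the highest share of falls in the 3 panels.

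Of 19 chemokines tested, 13 were higher and 4 lower, with a median log2 fold change of 2.91. For 5 of the 13 the rise was no more than 5% of the gene's level in sorted lung epithelium, called the epithelial mark below, and 1 had the leukocyte mark, a spread over the lung libraries in the order of leukocyte markers. The marks cover no other lung cells, for which no reference was used, so a gene without one is not thereby free of host RNA. Genes in leukocyte order with less than a 3-fold spread, such as Cxcl9 and Cxcl10, lack the leukocyte mark too. The CXCR3 ligands Cxcl9 and Cxcl10, which recruit activated T and NK cells, went from near absence to moderate levels. Cxcl9 stood at 0.0488, 0 and 0 CPM in culture and at 31.9, 39 and 66.2 CPM in lung, and with 1 count over all cultures its ratio was 3235 (95% counting interval 580 to 127830, exact binomial, adjusted p = 9.86e-07). Cxcl10 stood at 0.536, 1.49 and 0.542 CPM in culture and at 35.2, 42.9 and 74.6 CPM in lung (log2 fold change 5.80, SE 0.41, adjusted p = 6.79e-06). For both genes the lowest lung library was more than 20 times the highest culture library. Cxcr3 itself, the receptor, rose as well, from 2.93, 3.51 and 3.34 CPM to 19, 18.4 and 18.4 CPM (log2 fold change 2.51, SE 0.14, adjusted p = 1.69e-06). Of 15 markers of T and NK cells, 5 passed the filter on low counts, and all 5 were higher. The 15 summed to 13.6, 11.6 and 22.9 CPM in lung and 2.22 to 2.93 CPM in culture. Lck was above 1 CPM in every culture. The other 14 summed to 8.70, 7.24 and 18.6 CPM in lung and 0.208 to 0.390 CPM in culture. The part of T and NK cells in the level of Cxcr3 was not tested.

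Neutrophil- and monocyte-directed chemokines split. Cxcl1 stood at 54.2, 46.7 and 47.5 CPM in culture and at 392, 353 and 371 CPM in lung, and Cxcl2, a second ligand of CXCR2, rose from 0.244, 0.208 and 0.0904 to 6.66, 6.24 and 6.84 CPM (log2 fold changes 2.91 and 5.14). Cx3cl1, the membrane-bound chemokine fractalkine, rose from 40.6, 53.7 and 34.9 to 267, 274 and 338 CPM (log2 fold change 2.76, SE 0.17, adjusted p = 2.54e-06), and Ccl2, the main monocyte chemoattractant, from 25.1, 36.7 and 50.2 to 190.2, 188 and 214 CPM (log2 fold change 2.40, SE 0.21, adjusted p = 2.39e-05). Falls were seen in Cxcl5, another CXCR2 ligand, from 94.6, 84.6 and 71.6 to 20.5, 13.6 and 22.5 CPM (log2 fold change -2.15, SE 0.18, adjusted p = 2.08e-05), and in Cxcl16, the ligand of CXCR6, from 199, 209 and 177 to 56.1, 53 and 72.7 CPM (log2 fold change -1.69, SE 0.13, adjusted p = 1.14e-05). None of these 6 genes had overlapping groups, so ligands of 1 receptor, CXCR2, moved in opposite directions. The rises in Cxcl1 and Cx3cl1 equalled 145% and 350.5% of their level in the richer of the 2 epithelial groups.

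Promoters of the 2 CXCR3 ligands are shown because they hold letters of the elements through which interferon and NF-kB act. RefSeq windows (GRCm38.p6, 250 bases before to 50 after the start, written 5′ to 3′ on the gene's strand) are chr5:92328030-92328329, minus strand, for Cxcl9 and chr5:92348840-92349139, minus strand, for Cxcl10. Capitals mark matches on either strand to ISRE (GAAANNGAA) and kappaB (GGGNNTTCC), and neither window matched GAS (TTCNNNGAA).
Cxcl9: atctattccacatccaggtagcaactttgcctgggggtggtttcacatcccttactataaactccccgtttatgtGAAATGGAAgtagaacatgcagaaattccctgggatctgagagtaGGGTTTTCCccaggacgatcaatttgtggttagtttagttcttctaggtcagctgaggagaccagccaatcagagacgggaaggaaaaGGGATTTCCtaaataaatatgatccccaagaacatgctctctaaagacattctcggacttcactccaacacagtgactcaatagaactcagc
Cxcl10: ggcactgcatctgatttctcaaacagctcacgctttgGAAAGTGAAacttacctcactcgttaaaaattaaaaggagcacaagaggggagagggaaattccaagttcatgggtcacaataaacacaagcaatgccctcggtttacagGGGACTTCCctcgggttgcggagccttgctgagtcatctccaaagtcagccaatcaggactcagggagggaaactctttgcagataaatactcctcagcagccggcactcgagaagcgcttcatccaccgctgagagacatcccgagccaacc
Cxcl9 had 1 ISRE and 2 kappaB matches, and Cxcl10 had 1 of each. Over the first listed window of 27018 genes, 8.6% matched ISRE, 5.7% kappaB and 8.5% GAS. A match is a description of the letters and not a mapped site.

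Among interleukins and colony-stimulating factors, 14 of 24 tested were higher and 2 lower. Il33, an alarmin of epithelial cells that activates ILC2 and regulatory T cells, stood at 0.878, 1.11 and 0.407 CPM in culture and at 49.3, 56.9 and 49.1 CPM in lung (log2 fold change 5.97, SE 0.23, adjusted p = 3.36e-07). Il18, which drives interferon-gamma in NK cells, rose from 1.37, 1.74 and 1.72 to 15.4, 14.2 and 18.9 CPM (log2 fold change 3.32, SE 0.19, adjusted p = 1.77e-06). Csf3, the granulocyte growth factor that 4T1 tumours make, was already present in culture and rose from 80.8, 73.7 and 49.7 to 397, 266 and 372 CPM (log2 fold change 2.34, SE 0.20, adjusted p = 2.11e-05). The groups did not overlap for these 3 genes. Mif was lower at 282, 249 and 319 CPM against 409, 419 and 415 CPM (log2 fold change -0.55, SE 0.10, adjusted p = 0.0015), and Csf1, the macrophage growth factor, was not called at 440.4, 567 and 456 CPM in lung against 409.8, 541 and 474 CPM (log2 fold change 0.04, adjusted p = 0.825). Interferon-gamma and interferon-beta transcripts did not pass the filter on low counts.

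Tnfsf10 (TRAIL), a ligand of death receptors, was near absent in culture. Tnfsf10 stood at 0.0975, 0.243 and 0.181 CPM in culture and at 16.4, 14.4 and 21.3 CPM in lung (log2 fold change 6.54, SE 0.29, adjusted p = 6.23e-07). Growth factors of the PDGF, VEGF, HGF and angiopoietin group were higher in 11 of 17 tested and lower in 2. Angptl4, an inhibitor of lipoprotein lipase that also acts on endothelium, rose from 0.683, 1.25 and 1.58 to 22, 15.2 and 17.4 CPM (log2 fold change 3.94), and Pdgfc from 3.66, 2.36 and 1.85 to 13.9, 14 and 16.9 CPM (log2 fold change 2.52). Pdgfb, which acts on pericytes, was lower at 5.19, 5.14 and 6.30 against 12.8, 11.4 and 10.1 CPM (log2 fold change -1.04). The EGF receptor ligands Areg and Tgfa were higher by 1.15 and 0.92 on the log2 scale, and Pthlh, the hormone-like factor of bone-seeking tumours, rose from 8.63, 9.10 and 8.63 to 45.9, 45.9 and 43.8 CPM (log2 fold change 2.36, SE 0.10, adjusted p = 5.44e-07). All of these groups were apart.

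Wnt ligands and CCN proteins went both ways, while no Notch or hedgehog ligand rose. Of 7 tested Wnt and R-spondin ligands 3 were higher and 1 lower (median log2 fold change 0.42), and of 8 IGF-binding and CCN proteins 3 were higher and 4 lower. Wnt7a, the 1 that fell, went from 31.6, 42 and 31.4 CPM in culture to 1.78, 1.35 and 1.45 CPM in lung (log2 fold change -4.51, SE 0.19, adjusted p = 4.36e-07), while Wnt7b, the more abundant of the pair, was higher by little, at 172, 183 and 152 against 142, 134 and 131 CPM (log2 fold change 0.32, SE 0.09, adjusted p = 0.017). That call was lost without culture library 2 or lung library 1 or 2 (log2 fold changes for Wnt7b 0.30, 0.30 and 0.25). Of 5 tested Notch and hedgehog ligands none was higher, and Dll4, Jag2 and Dhh were lower, with log2 fold changes of -1.33, -1.25 and -0.98. Jag1, the most abundant of them, was not called (log2 fold change 0.12, adjusted p = 0.582). Ccn2 (CTGF), a matricellular target of YAP and TGF-beta, fell from 85.7, 99.4 and 84 to 5.95, 6.74 and 6.41 CPM (log2 fold change -3.82, SE 0.12, adjusted p = 1.47e-07), and Ccn4 fell by a log2 fold change of -1.36, whereas Ccn1 fell only from 418, 427 and 385 to 288, 320.2 and 348 CPM (log2 fold change -0.36) and Ccn5 rose from 0.244, 0.278 and 0.136 to 14.8, 8.64 and 17.7 CPM (log2 fold change 5.90). Members of this one family thus spanned both directions.

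Other secreted falls were Fgfbp1, a carrier that frees FGFs from matrix, from 186, 164 and 193 to 12.2, 15.3 and 15 CPM (log2 fold change -3.68, SE 0.12, adjusted p = 2.10e-07), and S100a7a, a psoriasin-type S100 protein, from 38.6, 77.4 and 99.1 to 1.98, 2.95 and 2.05 CPM (log2 fold change -4.94, SE 0.36, adjusted p = 8.53e-06). Serpinb2, an inhibitor of urokinase, fell from 3.51, 13.9 and 23.9 to 0.153, 0.399 and 0.323 CPM and Stc2, a stanniocalcin, from 16.2, 11.8 and 8.68 to 1.27, 1.65 and 0.754 CPM (log2 fold changes -5.54 and -3.31). Groups stayed apart for all 4, as their choice required, although culture libraries differed among themselves several-fold for Serpinb2. Slpi, the secreted inhibitor of leukocyte proteases, made the largest step in TPM (transcript abundance per length, scaled to a fixed total) of any secreted factor among the 10 largest rises: 160 ± 17.4 TPM in culture and 1956 ± 512 TPM in lung (SD, n = 3; log2 fold change 3.57). Osteopontin (Spp1), also in that set, went from 1144 ± 485 to 2803 ± 368 TPM (log2 fold change 1.26).

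Matrix genes went both ways. Collagens were higher in 11 of 20 (55%) and lower in 3 (15%), with the epithelial mark on 5 of the 11. Laminins and basement membrane genes were higher in 3 of 11 (27.3%) and lower in 2 (18.2%), near the 27.0% and 24.0% of all genes. Collagen VI chains rose, Col6a1 from 7.66, 5.0 and 5.88 to 186, 145 and 128 CPM (log2 fold change 4.64, SE 0.20, adjusted p = 4.64e-07) and Col6a2 from 0.244, 0.382 and 0.723 to 26.5, 17 and 20.7 CPM (log2 fold change 5.56, SE 0.31, adjusted p = 1.69e-06), while the basement membrane chains Col4a1 and Col4a2 were lower, with log2 fold changes of -0.69 and -0.68. Lamb3, a laminin chain of epithelial basement membrane, fell from 167, 275 and 178 to 102, 96.9 and 70.7 CPM (log2 fold change -1.20). Npnt (nephronectin), a ligand of integrin alpha-8 beta-1, rose from 18.2, 21.3 and 19.3 to 125, 118 and 113 CPM (log2 fold change 2.59, SE 0.10, adjusted p = 3.33e-07). Thbs1 (thrombospondin 1) fell from 231, 338 and 217 to 29.5, 33.2 and 28.2 CPM (log2 fold change -3.11, SE 0.17, adjusted p = 1.69e-06) and Fbln2 from 483, 698 and 526 to 149, 132 and 103 CPM (log2 fold change -2.15), against a rise of Ecm1 from 144, 249 and 214 to 748, 743 and 655 CPM (log2 fold change 1.82). For each of these 9 genes the 2 groups did not overlap. The rises in Col6a1 and Col6a2 equalled 17.7% and 5.95% of the epithelial level, and all 9 tested markers of fibroblasts and mural cells were higher too. Npnt is itself on that marker list and, with Pdgfra, was above 1 CPM in every culture. The other 13 markers of the list summed to 20.96 to 34.7 CPM in lung and 1.31 to 1.56 CPM in culture. Their part in the collagen VI levels was not tested.

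Matrix metalloproteinases, ADAMTS proteases and TIMPs were higher in 12 of 24 and lower in 1. Mmp9, the gelatinase, rose from 16, 32.1 and 17.4 to 144, 128 and 132 CPM (log2 fold change 2.61, SE 0.23, adjusted p = 2.88e-05), and Mmp13, a collagenase, from 1.95, 6.49 and 6.24 to 22.3, 21.7 and 31.1 CPM (log2 fold change 2.34, SE 0.35, adjusted p = 5.01e-04). Mmp9 is also on the list of neutrophil markers, whose 4 tested members were all higher. The other 11 markers of that list summed to 24.4, 18.0 and 47.6 CPM in lung and 0.390 to 1.56 CPM in culture. Lcn2, which is on the acute phase list too, made up 19.7, 12.6 and 27.7 CPM of these lung sums. The part of neutrophils in the Mmp9 level was not tested. Complement and coagulation genes were higher in 16 of 22, with a median log2 fold change of 3.13, and 12 of these 16 had the epithelial mark. The same held for 13 of 20 rises among other matrix proteins and for 7 of 12 among acute phase proteins, and the part of host RNA in these 3 lists was not tested.

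**Figure D2:**
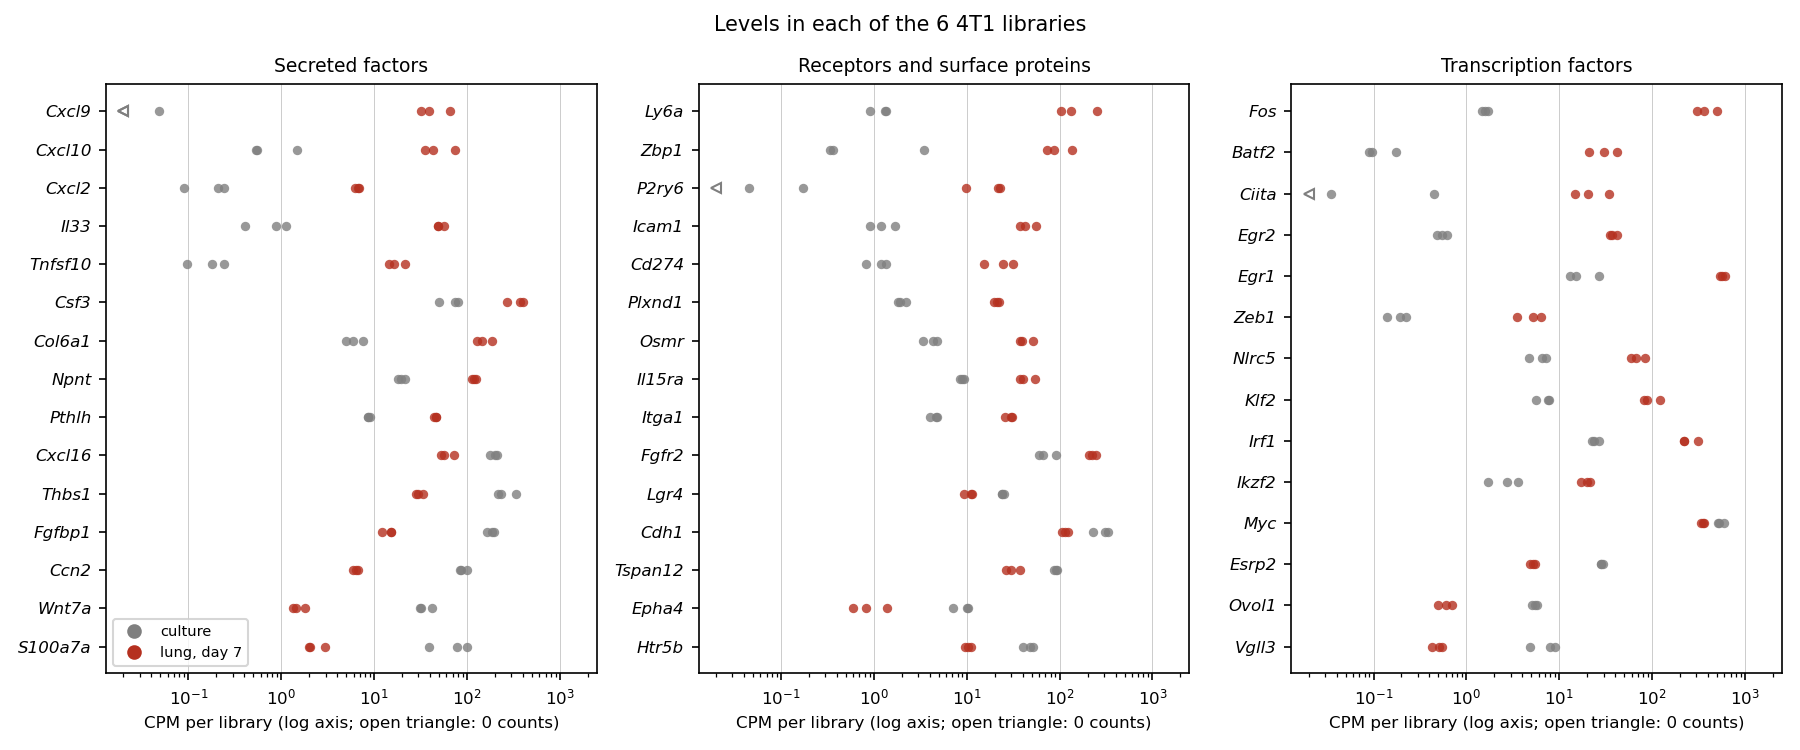
CPM in each of the 3 culture libraries (grey) and 3 lung libraries (red) on a log axis, for secreted factors, receptors and transcription factors named in the text. Open triangles mark 0 counts. For every gene drawn the red and grey points are apart, which the choice of many of these genes required. The lowest rows of each panel, such as Wnt7a, Epha4 and Vgll3, are those that fell.

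Of 34 tested receptors for interleukins, colony-stimulating factors, interferons and related cytokines, 23 (67.6%) were higher and 3 (8.82%) lower. Of the 23, 7 had either mark. Osmr, the oncostatin M receptor chain, rose from 4.39, 4.79 and 3.39 to 37.4, 39.7 and 51.2 CPM (log2 fold change 3.34, SE 0.18, adjusted p = 1.24e-06). Il15ra, which presents IL-15 to NK and T cells, rose from 8.53, 9.37 and 8.90 to 37.8, 40.4 and 54.3 CPM (log2 fold change 2.30, SE 0.15, adjusted p = 5.04e-06), and its ligand Il15 from 1.51, 1.98 and 1.67 to 5.19, 9.24 and 10.2 CPM (log2 fold change 2.24). Il1r1 rose from 13.6, 11.9 and 9.58 to 45, 46.4 and 43 CPM (log2 fold change 1.94, SE 0.13, adjusted p = 6.52e-06). The chains for interferon-gamma and type I interferons were higher by less. Ifngr2, for interferon-gamma, stood at 58.9 to 63.3 CPM in culture and 80.2 to 86.4 CPM in lung (log2 fold change 0.45). Ifnar1, for type I interferons, stood at 64.8 to 71.5 CPM in culture and 83.5 to 98.4 CPM in lung (log2 fold change 0.43). Their partner chains Ifngr1 and Ifnar2 had log2 fold changes of 0.41 and 0.57 (adjusted p = 0.0049 and 0.010), and the rise in Ifngr1 had the epithelial mark at 4.59%. Ifnlr1, for type III interferons, was not called (log2 fold change -0.50, adjusted p = 0.332).

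Sensors of nucleic acids and microbial products were higher in 21 of 26 and lower in 1, and none of the 21 had either mark. Zbp1, a sensor of Z-form nucleic acid, stood at 0.341, 3.47 and 0.362 CPM in culture and 73.6, 86.8 and 136 CPM in lung (log2 fold change 6.00, SE 0.59, adjusted p = 4.74e-05). Ifi205, of the AIM2-like receptors, rose from 0.244, 0.521 and 0.497 to 9.51, 13.5 and 20.0 CPM (log2 fold change 5.04, SE 0.36, adjusted p = 7.91e-06). The RNA sensor Ifih1 (MDA5) stood at 14.2 to 28.7 CPM in culture and 58 to 67.1 CPM in lung (log2 fold change 1.64). Tlr3, the endosomal RNA sensor, stood at 14 to 20.1 CPM in culture and 41.1 to 50.5 CPM in lung (log2 fold change 1.37). The exception was Nlrc3, an inhibitory NLR protein, which fell from 9.61, 9.62 and 8.90 to 3.10, 3.15 and 2.86 CPM (log2 fold change -1.63, SE 0.16, adjusted p = 5.09e-05). Culture library 2 was the highest of the cultures for Zbp1.

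On the surface side, Ly6a (Sca-1) rose from 1.32, 1.35 and 0.904 to 103, 132 and 252 CPM (log2 fold change 7.07, SE 0.40, adjusted p = 1.77e-06), and P2ry6, a receptor for UDP, from 0, 0.174 and 0.0452 to 22.9, 9.89 and 21.6 CPM (log2 fold change 7.67, SE 0.56, adjusted p = 8.53e-06). Adhesion to leukocytes was represented by Icam1, the ligand of LFA-1, at 1.71, 1.18 and 0.904 CPM in culture and 41.9, 37.8 and 55.7 CPM in lung (log2 fold change 5.17, SE 0.23, adjusted p = 6.54e-07), and by Vcam1, the ligand of VLA-4, at 89.8, 97.1 and 64.5 and 323, 300.1 and 342 CPM (log2 fold change 1.94, SE 0.14, adjusted p = 9.47e-06). Cd274 (PD-L1), which restrains T cells, rose from 1.37, 1.18 and 0.814 to 15.5, 24.4 and 31.4 CPM (log2 fold change 4.40, SE 0.30, adjusted p = 6.06e-06). Each of these 5 had groups that did not overlap, which was a condition of choice for all but Vcam1. The rise in Icam1 equalled 7.92% of its epithelial level, that in Cd274 21.6% and that in Vcam1 30.7%.

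Guidance and matrix receptors shifted in the same samples. Plexins, neuropilins and netrin or slit receptors were higher in 7 of 12 (58.3%) and lower in 1 (8.33%). Plxnd1, the receptor of semaphorin 3E, rose from 2.19, 1.84 and 1.90 to 19.4, 21 and 22.1 CPM (log2 fold change 3.40, SE 0.15, adjusted p = 5.75e-07), while Sema3e itself fell from 84.2, 113 and 88.1 to 74.5, 69.6 and 66.7 CPM (log2 fold change -0.44, SE 0.12, adjusted p = 0.013). Sema4c, a ligand of plexin B2, rose from 11.2, 8.05 and 7.73 to 51, 50.5 and 38.4 CPM (log2 fold change 2.38, SE 0.17, adjusted p = 8.53e-06). Epha4, by contrast, fell from 10.2, 9.96 and 7.05 to 0.814, 1.40 and 0.593 CPM (log2 fold change -3.27, SE 0.31, adjusted p = 3.80e-05).

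Integrins went both ways, with 9 of 20 (45%) higher and 5 (25%, near the 24.0% of all genes) lower. Itga1, the collagen-binding alpha-1 chain, rose from 4.63, 4.83 and 3.98 to 30.5, 30.0 and 25.8 CPM (log2 fold change 2.68, SE 0.14, adjusted p = 1.05e-06), and Itgb4, the laminin-binding beta-4 chain, from 58.9, 61 and 49.6 to 190.4, 202 and 172 CPM (log2 fold change 1.74, SE 0.11, adjusted p = 3.30e-06). Itga7 and Itga3, laminin-binding alpha chains, fell, with log2 fold changes of -1.29 and -0.58. Fgfr2, the epithelial FGF receptor, rose from 66.5, 90.4 and 60.6 to 248, 224 and 207 CPM (log2 fold change 1.64, SE 0.15, adjusted p = 3.08e-05), and Axl, the most abundant receptor tyrosine kinase named here, fell from 1649.6, 1903 and 1589 to 1070.4, 1170.0 and 915 CPM (log2 fold change -0.70, SE 0.11, adjusted p = 7.43e-04). Egfr and Erbb2 were not called (log2 fold changes -0.41 and -0.18, adjusted p = 0.343 and 0.193).

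Wnt, hedgehog and Notch receptors were the receptor list in which more members fell than rose: 7 of 19 were lower and 2 higher, with a median log2 fold change of -0.04. Lgr4, the R-spondin receptor, fell from 23.7, 24 and 25.4 to 11, 11.3 and 9.27 CPM (log2 fold change -1.21, SE 0.12, adjusted p = 5.19e-05). The Frizzled receptors Fzd1 and Fzd3 fell, with log2 fold changes of -1.01 and -0.96, and Notch1 and Lgr6 were the 2 that rose (log2 fold changes 1.12 and 0.70). The Lgr6 call was lost without culture library 2 or lung library 1 or 3 (log2 fold changes 0.75, 0.69 and 0.66). Other surface falls included E-cadherin (Cdh1), from 336, 311 and 227 to 124, 115 and 105 CPM (log2 fold change -1.35, SE 0.14, adjusted p = 7.30e-05), Tspan12, a co-receptor of Norrin signalling, from 90.7, 94.1 and 87.5 to 29.9, 37.7 and 26.8 CPM (log2 fold change -1.53, SE 0.13, adjusted p = 1.83e-05), and Htr5b, a serotonin receptor, from 48.3, 51.9 and 40.5 to 9.61, 11.2 and 10.3 CPM (log2 fold change -2.17, SE 0.13, adjusted p = 2.33e-06). Tigit, usually a lymphocyte checkpoint receptor, was present in culture at 79.2, 104 and 102 CPM and lower in lung at 45, 37.4 and 49.2 CPM (log2 fold change -1.12, SE 0.14, adjusted p = 1.71e-04).

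Transcription factors of signal responses moved in a background that as a class did not. EGR and NR4A factors with their SRF partners were higher in 9 of 12 and lower in none, STAT factors higher in 4 of 6, interferon regulatory factors higher in 7 of 11 with none lower, and NF-kB factors and inhibitors higher in 11 of 15. Fos, an AP-1 subunit, stood at 1.46, 1.70 and 1.58 CPM in culture and at 302, 501 and 361 CPM in lung (log2 fold change 7.92, SE 0.24, adjusted p = 1.47e-07). Egr2 went from 0.488, 0.625 and 0.542 to 41.8, 35.3 and 37 CPM (log2 fold change 6.07, SE 0.17, adjusted p = 1.47e-07) and Klf2, a quiescence factor of endothelium and T cells, from 5.61, 7.85 and 7.64 to 82, 122 and 88.3 CPM (log2 fold change 3.79, SE 0.19, adjusted p = 9.86e-07). These immediate early genes had lung values within a factor of 2 of each other. Rises during growth in lung and rises during recovery of the cells cannot be told apart here.

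The interferon branch was led by Batf2, a basic leucine zipper factor induced by interferon, which stood at 0.0975, 0.174 and 0.0904 CPM in culture and 21.1, 30.4 and 42.3 CPM in lung (log2 fold change 7.89, SE 0.39, adjusted p = 9.29e-07). Stat2, which takes part in the response to type I interferons, rose from 19.8, 27.5 and 17.4 to 116, 149.8 and 167 CPM (log2 fold change 2.74, SE 0.19, adjusted p = 6.52e-06). Irf1, an interferon regulatory factor, rose from 23.9, 26.8 and 22.3 to 219, 222 and 310.4 CPM (log2 fold change 3.36, SE 0.16, adjusted p = 7.07e-07), and Irf8 from 15.3, 10.3 and 9.40 to 82.9, 82.7 and 146 CPM (log2 fold change 3.16, SE 0.26, adjusted p = 1.86e-05). The 2 master regulators of MHC genes rose too: Nlrc5, of class I, from 6.44, 7.26 and 4.75 to 59.7, 66.7 and 83.3 CPM (log2 fold change 3.50, SE 0.18, adjusted p = 1.21e-06), and Ciita, of class II, from 0, 0.0347 and 0.452 to 14.7, 20.2 and 34.5 CPM (log2 fold change 7.17, SE 0.61, adjusted p = 2.20e-05). Stat6, the factor of IL-4 signalling, was the STAT that fell (log2 fold change -0.34), together with Il4ra (log2 fold change -0.57). The Stat6 call was lost without culture library 1 or 2 or lung library 3 (log2 fold changes -0.32, -0.30 and -0.27).

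Irf1 and Icam1 are shown here as promoters with a GAS match, in the same RefSeq build. GAS was absent from the other listed window of Irf1 and from those of Psmb9 and Tap1, which were searched too. The windows are chr11:53769764-53770063, plus strand, for the first of 2 listed starts of Irf1 and chr9:21015690-21015989, plus strand, for Icam1. Capitals mark GAS (TTCNNNGAA), and neither window matched ISRE or kappaB as spelled above.
Irf1: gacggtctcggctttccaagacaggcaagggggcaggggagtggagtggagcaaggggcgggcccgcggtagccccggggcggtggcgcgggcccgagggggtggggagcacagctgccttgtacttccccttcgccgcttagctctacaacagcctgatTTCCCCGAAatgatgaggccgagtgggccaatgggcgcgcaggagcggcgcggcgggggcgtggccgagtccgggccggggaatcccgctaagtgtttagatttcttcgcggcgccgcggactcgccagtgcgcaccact
Icam1: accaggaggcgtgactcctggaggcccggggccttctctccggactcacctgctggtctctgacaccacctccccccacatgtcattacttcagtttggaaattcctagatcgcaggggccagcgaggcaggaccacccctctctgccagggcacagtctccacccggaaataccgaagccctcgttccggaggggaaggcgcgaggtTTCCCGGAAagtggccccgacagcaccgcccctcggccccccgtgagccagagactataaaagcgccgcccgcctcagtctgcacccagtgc
Each window held 1 match, beside the 8.5% of all windows that held any.

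Falls of at least 2-fold were fewer than rises among the 695 transcription factors, 22 against 79. The same held over all 14022 genes, with 535 (3.82%) against 2081 (14.8%). Esrp2, a regulator of epithelial splicing that the list of epithelial state factors includes, fell from 29.4, 28.3 and 27.9 to 5.49, 5.24 and 4.85 CPM (log2 fold change -2.46, SE 0.12, adjusted p = 8.71e-07), and Ovol1, an epithelial zinc finger repressor, from 5.80, 5.14 and 5.47 to 0.610, 0.499 and 0.700 CPM (log2 fold change -3.17, SE 0.26, adjusted p = 1.63e-05). Vgll3, a cofactor of TEAD factors, fell from 4.83, 7.88 and 9.08 to 0.509, 0.549 and 0.431 CPM (log2 fold change -3.86, SE 0.32, adjusted p = 1.92e-05), while Tead1, one of those factors, stood at 19.1 to 21.4 CPM in culture and 30.2 to 37.5 CPM in lung (log2 fold change 0.75). Zeb1, a repressor of epithelial genes, rose from 0.195, 0.139 and 0.226 to 5.19, 3.54 and 6.36 CPM (log2 fold change 4.73, SE 0.38, adjusted p = 1.60e-05), a rise equal to 8.17% of its epithelial level. Myc fell from 519.9, 599 and 506 to 357, 335 and 356 CPM (log2 fold change -0.63, SE 0.09, adjusted p = 4.13e-04), and its antagonists Mxd1 and Mxd4 rose by 2.04 and 2.08 on the log2 scale. Mxi1, a further antagonist, was lower (log2 fold change -0.49, adjusted p = 0.034). That call was lost without culture library 1 or 3 or lung library 2 or 3 (log2 fold changes for Mxi1 -0.52, -0.37, -0.40 and -0.53). Of 330 numbered zinc finger genes, 38 (11.5%) were higher and 70 (21.2%) lower, the first share below the 27.0% of all genes and the second near the 24.0%. Symbols starting with Zfp bring in 2 proteins that are no classical factors, the mRNA decay factor Zfp36, which rose from 27.3, 22.3 and 16.9 to 611, 610.1 and 649 CPM, and Zfp106, which fell from 266, 255 and 237 to 118, 127 and 95.9 CPM.

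Guanylate-binding proteins and immunity-related GTPases, which act against vacuolar pathogens, moved almost as a block: 19 of 20 tested were higher, with a median log2 fold change of 6.81 beside 0.01 over all genes. Iigp1 stood at 0.488, 2.26 and 0.136 CPM in culture and at 297, 359.7 and 443 CPM in lung (log2 fold change 8.43, SE 0.50, adjusted p = 2.26e-06). Gbp10 rose from 0.585, 1.18 and 0.136 to 109.8, 188 and 208 CPM and Tgtp2 from 0.780, 4.69 and 0.316 to 346, 509 and 539 CPM (log2 fold changes 7.95 and 7.78), and for these 3 genes the groups were far apart. Several members are near-identical copies, so how reads were split between, for instance, Tgtp1 and Tgtp2 is uncertain. None of the 19 rises had the epithelial or the leukocyte mark, and other lung cells were not compared. Iigp1, Gbp10 and Tgtp2 nonetheless stood in the order of leukocyte markers over the lung libraries, with less than the 3-fold spread that the mark needs. The part of host cells in their levels was not tested.

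Promoter windows were listed for 12 of the 20 GTPases, and 10 of the 12 (83.3%) matched ISRE. This stood beside 7.2% of 9763 tested genes with a window and 57.8% of 45 windows for OAS, IFIT and other interferon-induced genes that were higher. GAS matched 6 of the 12 (50%), beside 6.9% of the 9763 genes and 22.2% of the 45 windows. ISRE matches with 8 bases on either side are shown to let the repeats be compared between genes of one cluster. They are written on the gene's strand, with the ISRE match in capitals (GAAANNGAA, read on either strand). Positions in GRCm38.p6 are chr3:142620597-142620621 for Gbp2, chr3:142594703-142594727 for Gbp2b, chr3:142496762-142496786 for Gbp5 and chr3:142530276-142530300 for Gbp7, all on the plus strand. For the IRG genes they are chr11:58199514-58199538 for Igtp and chr11:58214905-58214929 for Irgm2 on the plus strand, and chr11:48992307-48992331 for Tgtp1 and chr11:49064266-49064290 for Tgtp2 on the minus strand.
Gbp2: cttttagtTTCACTTTCactgtctt
Gbp2b: cttctaatTTCACTTTCttctttat
Gbp5: tgtgtagtTTCAATTTCagtttaga
Gbp7: tgtgcagtTTCAGTTTCagttctcc
Igtp: taggaactGAAACTGAAagctgttc
Irgm2: caggaactGAAACTGAAagctgttc
Tgtp1: caggaatcGAAACTGAAacctacct
Tgtp2: caggaatcGAAACCGAAacctactc
The match of the 4 GBP genes began 52 to 164 bases before the start, and that of the 4 IRG genes 34 to 77 bases before it. Log2 fold changes of these 8 genes ran from 5.15 in Irgm2 to 7.78 in Tgtp2. Gbp3 and Irgm1 held 2 overlapping ISRE matches each.

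MHC and antigen processing genes were higher in 27 of 28 tested. The class II chain H2-Ab1 stood at 0.146, 0.0347 and 0.0904 CPM in culture and at 76.1, 134 and 239 CPM in lung. H2-Aa, its partner, stood at 0, 0 and 0.0452 and 53.2, 86.2 and 146 CPM. H2-Eb1, a second beta chain, stood at 0 in culture and at 46.1, 63.2 and 138 CPM in lung. With 0 counts in all cultures, H2-Eb1 was at least 639-fold higher when each culture library is set to the floor of 3 counts. Lung library 3, richest in macrophage markers, was highest for all 3 chains. The 12 dendritic cell markers, which include these 3 chains, summed to 196, 307 and 550 CPM in lung and 6.49 to 8.59 CPM in culture, and all 6 that were tested were higher. Beside the chains these were Zbtb46, from 3.66, 2.33 and 3.16 to 7.43, 9.34 and 6.84 CPM, Batf3, from 4.10, 3.78 and 4.66 to 11.4, 11.2 and 15.5 CPM, and Ccr7, from 0, 0 and 0.181 to 1.02, 1.75 and 2.86 CPM. The 6 not tested, Xcr1, Clec9a, Cd209a, Flt3, Itgae and Siglech, were each below 1 CPM in every lung library. H2-Ab1 carried the mark for spread in the order of leukocyte markers, and its rise equalled 5.0% of the epithelial level. The part of host cells in the class II levels was not tested.

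Protein breakdown showed a split within 1 complex. Of 48 proteasome genes 7 were higher and 20 lower, and 6 of the 7 were the interferon-inducible catalytic subunits Psmb8, Psmb9 and Psmb10 and activator subunits Psme1, Psme2 and Psme2b, with a median log2 fold change of 2.43. Psmb9 stood at 1.22, 2.81 and 1.18 CPM in culture and at 102, 125 and 185 CPM in lung (log2 fold change 6.24, SE 0.34, adjusted p = 1.57e-06), and Psmb8 rose from 24, 59.7 and 28 to 488, 554 and 738 CPM (log2 fold change 3.99, SE 0.33, adjusted p = 1.88e-05). Their constitutive counterparts Psmb5, Psmb6 and Psmb7 had log2 fold changes of -0.38, -0.17 and -0.26, of which Psmb5 was called (adjusted p = 0.020). That call was lost without lung library 1 or 2 (log2 fold changes for Psmb5 -0.37 and -0.30), and Psmb7 was called without lung library 3 (log2 fold change -0.39). The other 42 subunits and assembly genes had a median of -0.26, with 1 higher and 20 lower. Psme3, the nuclear activator, fell from 259.9, 280.5 and 248 to 167, 155 and 156 CPM (log2 fold change -0.72, SE 0.08, adjusted p = 1.36e-04).

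**Figure D3:**
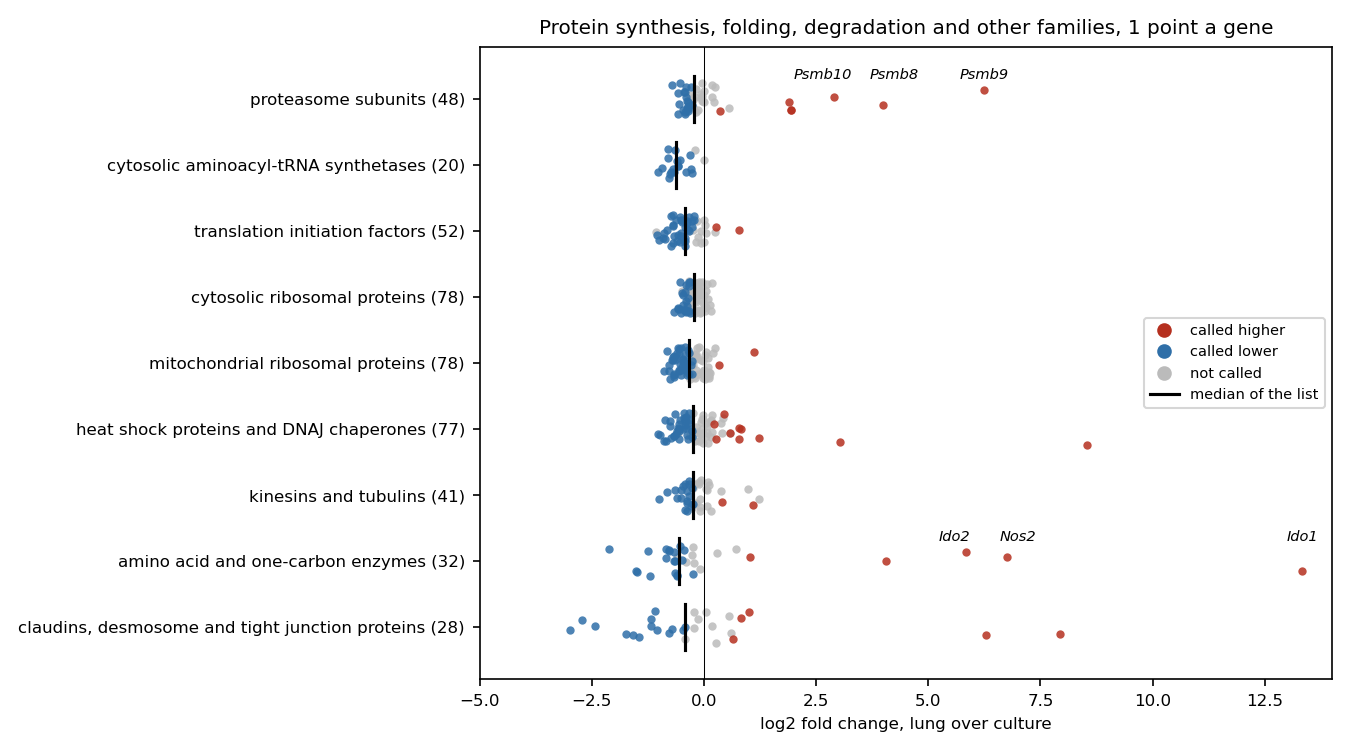
Log2 fold change, lung over culture, of every tested gene in 9 families, with the number tested in brackets; red and blue points were called, grey were not, and black bars are medians. Synthetases and initiation factors lie to the left of 0 with medians of -0.62 and -0.43, whereas inducible proteasome subunits and Ido1, Ido2 and Nos2 lie far to the right of their families.

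Aminoacyl-tRNA synthetases and initiation factors were lower by small steps. Of 20 cytosolic aminoacyl-tRNA synthetases, which charge tRNAs, 18 were lower and none higher (median log2 fold change -0.62), and of 52 initiation factor genes 37 were lower and 2 higher (median -0.43). Iars fell from 376, 349 and 279.6 to 182, 161 and 152 CPM (log2 fold change -1.02, SE 0.12, adjusted p = 1.54e-04) and Eif2s3x, a subunit of eIF2, from 354, 373 and 345 to 175, 169 and 176 CPM (log2 fold change -1.04, SE 0.08, adjusted p = 9.84e-06). Mitochondrial ribosomal proteins were lower in 42 of 78 and higher in 2 (median -0.34), and cytosolic ribosomal proteins lower in 24 of 78 (30.8%, near the 24.0% of all genes) and higher in none (median -0.23). Eif2ak2 (PKR), an interferon-induced kinase that blocks initiation, was 1 of the 2 initiation genes that rose, from 52, 81.5 and 44.8 to 97.9, 110.1 and 98 CPM (log2 fold change 0.78, SE 0.19, adjusted p = 0.0077).

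Amino acid and one-carbon enzymes fell in 19 of 32 and rose in 5. Mthfd2, the mitochondrial folate enzyme, fell from 238, 221 and 226 to 83.4, 84.7 and 77.3 CPM (log2 fold change -1.48, SE 0.08, adjusted p = 1.77e-06) and Asns, asparagine synthetase, from 370.2, 294 and 313 to 148, 134 and 129 CPM (log2 fold change -1.25, SE 0.11, adjusted p = 2.15e-05). Among the 5 were enzymes that consume tryptophan and arginine. Ido1, listed at 0 in all cultures, stood at 36.6, 56.4 and 86 CPM in lung, at least 463-fold higher by the same measure, and Nos2, the inducible nitric oxide synthase, rose from 0.341, 0.174 and 0.362 to 23.6, 28.7 and 41.1 CPM (log2 fold change 6.76, SE 0.32, adjusted p = 7.85e-07). The Ido1 rise was 298% of the epithelial level and lacked both marks, although its lung values stood in leukocyte order with less than a 3-fold spread.

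Chaperones were lower more often than higher, with 34 of 77 heat shock and DNAJ genes lower and 10 higher. The mitochondrial chaperones Hspd1 and Hspa9 fell from 1941, 2035 and 1660.0 to 925, 918 and 1024 CPM and from 1031, 1022 and 898 to 505, 488 and 465 CPM (log2 fold changes -0.97 and -1.02). Dnajb9, a target of the unfolded protein response, rose from 14.4, 12.9 and 11.9 to 29.6, 29.5 and 32.9 CPM (log2 fold change 1.23, SE 0.12, adjusted p = 3.89e-05). Per length, the largest falls in TPM were Ftl1, ferritin light chain, from 9687 ± 1663 to 5326 ± 248 TPM, and the glycolytic Pkm, from 4576 ± 383 to 2220 ± 105 TPM (SD, n = 3; log2 fold changes of counts -0.92 and -1.11). Groups were apart for all 5 genes.

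Lipid mediators and transport gave opposed changes inside pathways. Ptgs2 (COX-2) fell from 426, 435 and 267 to 99.4, 109 and 148 CPM (log2 fold change -1.66, SE 0.20, adjusted p = 1.74e-04) and Pla2g4a, which releases its substrate arachidonate, from 220.2, 224 and 196 to 88.6, 97.3 and 92 CPM (log2 fold change -1.20, SE 0.09, adjusted p = 9.14e-06), while Ptges, the synthase of prostaglandin E2 downstream of COX-2, rose from 9.36, 10.5 and 8.59 to 48.1, 38.9 and 47.2 CPM (log2 fold change 2.24, SE 0.13, adjusted p = 2.20e-06). The water channels moved apart, Aqp1 from 13.4, 9.89 and 15.2 to 176, 163 and 158 CPM (log2 fold change 3.70, SE 0.15, adjusted p = 4.36e-07) and Aqp5 from 89.3, 68.7 and 53.6 to 10.3, 9.84 and 11 CPM (log2 fold change -2.76, SE 0.18, adjusted p = 4.60e-06). Cyp1b1, a target of the aryl hydrocarbon receptor, fell from 53.2, 79.2 and 76.4 to 3.82, 1.70 and 1.78 CPM (log2 fold change -4.83, SE 0.29, adjusted p = 2.32e-06) and the efflux pump Abcg2 from 27.3, 33.8 and 35 to 7.17, 4.64 and 6.03 CPM (log2 fold change -2.43, SE 0.17, adjusted p = 7.75e-06). Slc2a1, the glucose carrier GLUT1, fell from 156, 137 and 104 to 60.9, 48.9 and 52.2 CPM (log2 fold change -1.29, SE 0.15, adjusted p = 1.27e-04). In each case no lung library overlapped a culture library.

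Inflammatory caspases rose. Casp1, the inflammasome protease, stood at 0.927, 2.26 and 1.90 CPM in culture and 40.7, 47 and 66.8 CPM in lung (log2 fold change 4.89, SE 0.29, adjusted p = 2.26e-06), and Casp4 (mouse caspase-11) and Casp12 rose by 4.57 and 3.90 on the log2 scale. Across caspases and the BCL2 family 17 of 36 (47.2%) were higher and 6 (16.7%) lower. Keratins rearranged, 9 of 13 higher and 3 lower: Krt7 fell from 1048, 859 and 723 to 275, 259 and 271 CPM (log2 fold change -1.71, SE 0.13, adjusted p = 1.02e-05) and Krt19 from 161, 155 and 150.3 to 48.3, 33.7 and 48.8 CPM (log2 fold change -1.83, SE 0.14, adjusted p = 9.92e-06), whereas the basal keratin Krt14 rose from 8.29, 14.6 and 18.5 to 31.5, 33.7 and 43.3 CPM (log2 fold change 1.39, SE 0.25, adjusted p = 0.0014).

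To see which rises lung RNA could cover, the step in each gene called higher was set against its level in sorted lung epithelium. Of 3781 genes, 346 (9.15%) rose by no more than 5% of the higher of the distal and niche means, 156 by no more than 2% and 90 by no more than 1%. The leukocyte mark, a spread of 3-fold or more over the lung libraries in the order of 15 leukocyte markers, was met by 136 (3.60%), and 391 (10.3%) had either mark. Among the 10241 genes not called higher, 67 (0.654%) met the spread rule. Macrophage and monocyte markers summed to 11894 CPM in the distal and 8633 CPM in the niche group. Lyz2, which alveolar type 2 cells express as well, made up 11126 and 2512 CPM of these means, and the other 19 markers 767 and 6121 CPM, so the epithelial mark can also take in genes of that list.

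Host markers give the scale of that RNA. Xist had 0 counts in all 3 cultures and 14, 26 and 74 counts in lung libraries 1 to 3, which are 0.435%, 0.791% and 2.42% of its distal epithelial level. Sftpc, the surfactant gene of alveolar type 2 cells, stood at 3.12, 1.60 and 1.18 CPM in culture and 46.7, 51 and 86.8 CPM in lung, a rise of 0.0275% of the epithelial level. Macrophage and monocyte markers were higher in 12 of 15 tested, led by Lyz2 at 48.4, 97.1 and 502 CPM in lung against 0.146, 0.0347 and 0.0452 CPM in culture. Sums of several other lists were carried by a few markers that the cultures express. For 3 of these lists, the markers at 1 CPM or less in at least 1 culture library are given apart. For all leukocytes, 12 such markers summed to 20.2 to 95.6 CPM in lung and 0.937 to 1.61 CPM in culture, while the other 3 summed to 261 to 363 and 169 to 219 CPM. For endothelial cells, 13 summed to 25.4 to 41.8 and 1.12 to 1.70 CPM, while Egfl7 and Eng summed to 102 to 111 and 73.2 to 89.4 CPM. For fibroblasts and mural cells, Npnt and Pdgfra summed to 132 to 148 and 25.9 to 30.1 CPM, beside the 13 others given above. Of the markers listed, Muc5b, Lrrn4 and Hbb-bt had 0 counts in all lung libraries.

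**Figure D4:**
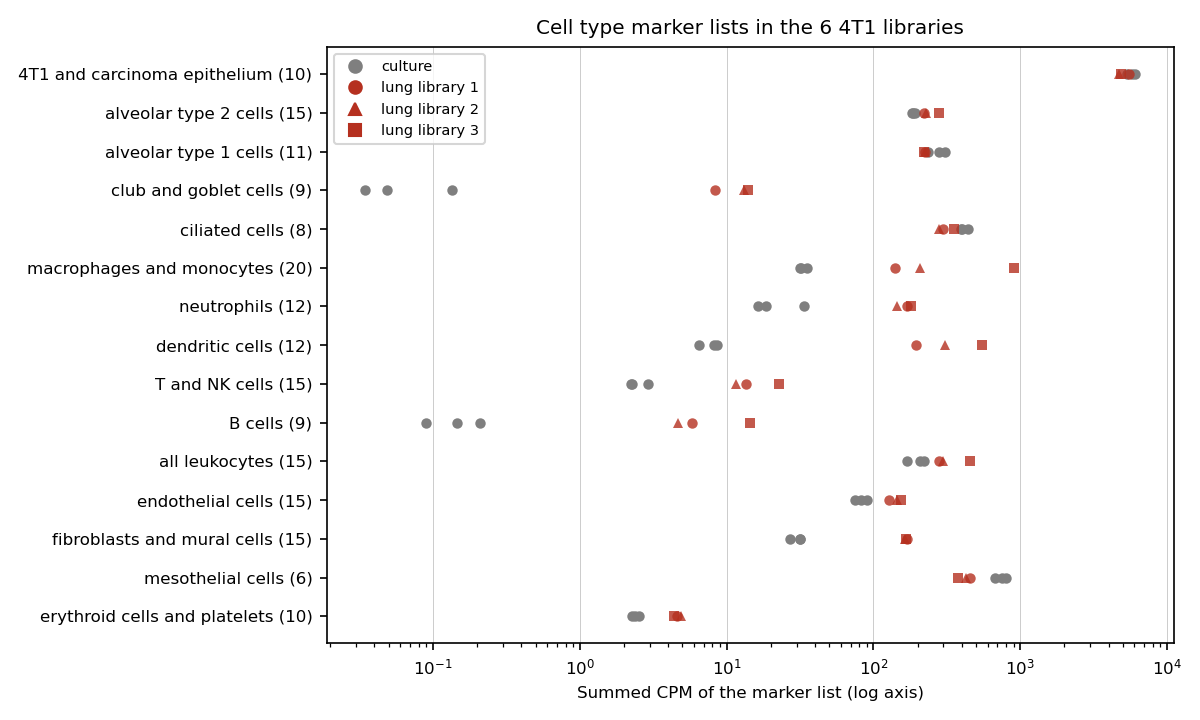
Summed CPM of each marker list, with the number of markers in brackets, on a log axis, in culture (grey) and lung libraries 1 (circle), 2 (triangle) and 3 (square). Lung library 3 lies to the right of the other 2 for macrophages, at 907 CPM, for dendritic cells and for all leukocytes, while the 3 lung libraries nearly coincide for fibroblasts and mural cells, whose sum is mostly Npnt.

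The marks fell unevenly over the classes. Of secreted factors called higher, 64 of 186 had the epithelial mark and 18 the leukocyte mark, of receptors 41 and 21 of 199, and of transcription factors 7 and 1 of 181. Both marks met in Lyz2, Ctss and Cybb, all of phagocytes, and Ccl6 had the leukocyte mark with 12.6, 22.3 and 109 CPM in lung. Chil3, a macrophage and neutrophil lectin, missed the order of the second rule but had 13.4, 12 and 104 CPM, a spread of 8.66-fold beside 6.45-fold for the macrophage marker sum. Epas1 (HIF-2 alpha), abundant in lung, carried the epithelial mark at 4.73, 7.79 and 9.0 CPM, and all 5 tested Fc receptors were higher with 4 epithelial and 4 leukocyte marks. How much of these rises is host RNA was not tested.

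Several of the rises named here lie just past the 5% line. Those in H2-Ab1, Angptl4, Cxcl9, Il33, Chil3 and Ccn5 equalled 5.0%, 6.04%, 6.63%, 6.95%, 7.95% and 8.51% of the epithelial level, whereas those in Psmb9 and Ly6a equalled 78.2% and 35.2%. Xist reached at most 2.42% of its distal level and 3.17% of its niche level in a lung library. Leaving out all genes with the epithelial mark left 122 secreted factors, 158 receptors and 174 transcription factors higher.

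**Figure D5:**
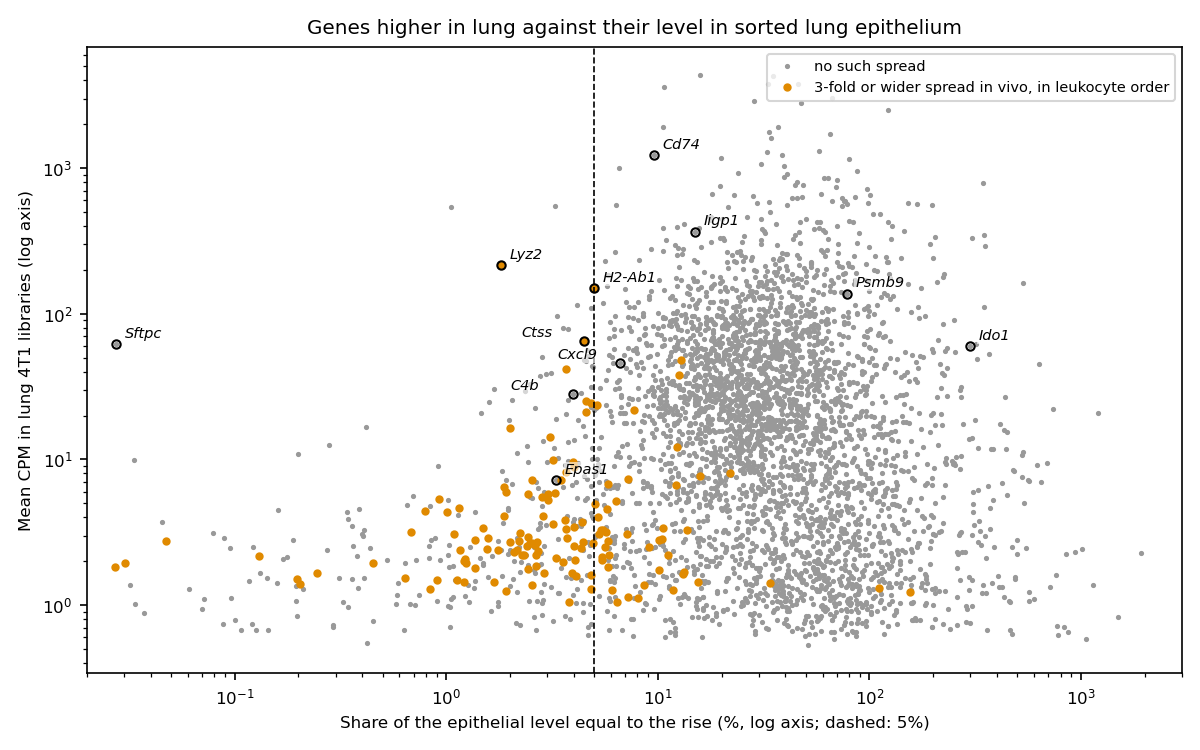
Each point is a gene called higher in lung; the horizontal axis is its rise as a percent of its level in the richer epithelial group and the vertical axis its mean CPM in lung, both on log axes, with 5% dashed. Orange points have the spread in leukocyte order; Sftpc, Lyz2, Ctss and C4b lie left of the line, Cxcl9 and H2-Ab1 close to it, and Psmb9 and Ido1 far to its right.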

How the data were processed

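The deposited tables, 1 per library, hold expected counts and TPM per gene. Per the submitters' processing notes RSEM and DESeq2 were used on GRCm38; the sources used here give no aligner, annotation release or strand setting. Expected counts from the deposited tables were rounded and fitted with edgeR 4.0.16 in R 4.3.3 (TMM scaling, filterByExpr, glmQLFit, glmQLFTest, Benjamini-Hochberg over 14022 genes) on the 6 4T1 libraries; CPM are counts per scaled library size, scaled as usual. Levels set against epithelium used TMM over all 15 libraries. The authors' TPM served only for per-length levels. Alternatives used DESeq2 1.42.0 and edgeR settings. The fit was tested on simulated counts. No 2 libraries of a group agreed within sampling noise.

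Members and gene lists were chosen with earlier results of these data known. Named genes are, per class, the 8 largest rises and falls (at least 10 CPM, no overlap), the 10 largest rises and falls in TPM, the 10 highest genes with a lung RNA mark, and up to 4 per direction and list from 5 CPM, or any member of lists of up to 12 tested genes; Cxcl1, Cx3cl1, Ccl2, Csf1, Jag1, Jag2, Psmb5, Psmb6, Psmb7, Psme1, Psme2, Ifngr1, Ifngr2, Ifnar1, Ifnar2, Ifnlr1, dendritic cell markers, Ifih1, Tlr3, Egfr, Erbb2, the GTPases with a promoter match, Xist and the non-coding genes were named after their values were seen. Lists follow symbols, so a few members are misplaced (Zfp36, Zfp106, Cstf2). Eno1 and Eno1b, MHC genes and GTPase copies may share reads.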

Additional observations from a re-analysis of the deposited data

How the results depend on the processing

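No named gene reversed under an alternative that gave it a value; 184 of 185 had one under DESeq2 and 170 under the mean of at least 5 CPM, which lost the calls of Mxi1, Psmb5 and Stat6. Fitting with DESeq2, with RLE scaling, over all 15 libraries or without the filter on low counts kept the counts over all genes and over the 3 classes within 1.5 times. The fit over all 15 libraries lost the calls of Ccn1, Dhh, Itga3, Lgr6, Sema3e and Wnt7b. With a mean of at least 5 CPM and scaling recomputed, log2 fold changes of genes in both fits shifted by a median of 0.10. This setting gave 117 secreted factors and 104 receptors higher and 74 transcription factors lower. Asking for 2-fold as well left 2081 genes higher and 535 lower, 31 secreted factors, 20 receptors and 22 transcription factors lower and 79 transcription factors higher. Without genes that epithelial RNA at 5% could cover, 122 secreted factors were higher. That mark took in 90 genes at 1%, 156 at 2% and 196 with distal epithelium alone. The leukocyte mark took in 234 genes at a 2-fold and 69 at a 5-fold spread.

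Leaving out 1 library at a time, so that its group held 2, gave 3293 to 3843 genes higher and 2741 to 3535 lower. The ranges were 183 to 201 and 50 to 62 for secreted factors, 204 to 227 and 55 to 69 for receptors, and 161 to 180 and 89 to 137 for transcription factors. The labels do not say whether replicate letters pair the samples. Same-letter correlations of deviations were 0.06, -0.03 and 0.05, and not every library correlated best with its own letter. With so few libraries these values cannot exclude pairing. A replicate block gave 3896 genes higher and 3591 lower and, of the genes named in the report, changed only the call of Psmb7, which passed.

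Genes with few counts in culture have the least certain folds, and the 3 libraries a group limit all errors.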

Other observations

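Of 2142 tested transcripts outside protein-coding genes 848 were higher and 149 lower in lung, a pattern noticed after the values were seen that did not extend to all types: of 454 processed pseudogenes 74 were higher and 70 lower (median log2 fold change -0.12). Of 541 tested genes of type TEC (to be experimentally checked) 325 were higher and 8 lower in lung (median log2 fold change 1.20), of 67 sense-intronic transcripts 46 were higher and 1 lower (median 1.29), and of 339 antisense transcripts 129 were higher and 13 lower. Protein-coding genes were higher in 2933 and lower in 3221 of 11880 (median -0.04). Within a mean of 1 to 5 CPM the medians were 1.16 for 244 TEC genes, 1.29 for 25 sense-intronic and 0.42 for 1426 protein-coding genes. TEC genes held 0.175% to 0.214% of counts in culture libraries and 0.395% to 0.519% in lung libraries, with no overlap. The nuclear RNAs Malat1 and Neat1 rose by 1.07 and 1.65 on the log2 scale, Malat1 from 0.139% to 0.184% of counts in culture to 0.331% to 0.431% in lung.

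Among protein-coding genes of at least 5 CPM, those spanning 67.6 kb or more of the genome were higher in 595 and lower in 420 of 1961, with a median log2 fold change of 0.07. Shorter genes, in 4 groups of like size, had medians from -0.15 to -0.08, with more genes lower than higher in each group. Mitochondrially encoded RNA made up 0.672% to 0.808% of counts in culture and 1.14% to 1.27% in lung. H19, an imprinted non-coding RNA, had 0 counts in the 3 cultures and stood at 15.3, 14.7 and 16.5 CPM in lung. The part of host RNA in the H19 level was not tested.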
